A study of Drosophila melanogaster with 30 samples.

Results

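The genes described here are the odorant receptors (Or), gustatory receptors (Gr), ionotropic receptors (Ir) and odorant binding proteins (Obp) of Drosophila melanogaster that were measured in Kc cells. They were taken by symbol, as every gene named with 1 of these 4 prefixes, a number and a letter, with 1 gene of that form not analysed here. This set was chosen with earlier results of these data known. Of the 10844 genes that had a probe set assigned to a single gene, 157 were of this kind. They comprised 52 Or, 27 Gr, 43 Ir and 35 Obp genes, against 59, 59, 66 and 51 genes of the same form in the RefSeq table of the fly assembly Release 6 plus ISO1 MT. Each gene was read by 1 probe set, the one with the highest mean over all arrays where a gene had several, which applied to 5 genes.

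Total RNA from Kc cells, an established Drosophila line with blood cell character and a tetraploid female karyotype, was hybridised to 30 Affymetrix fly arrays, 3 for each of 10 groups. In 9 groups RNAi was run for 4 days against Mip40, Mip120, Mip130, Lin-52, Myb, E2F2, RBF1 and RBF2 together (here RBFs), L(3)MBT or E2F1. The control group received an unspecific RNA named SK+, made from the plasmid pBSK+, over the same 4 days. The E2F1 group was named only by its sample titles. All 9 comparisons shared the same 3 control arrays. Whether the arrays of a group stand for independent cultures is not said in the labels. The p-values therefore cover only the variation among these samples, which may be technical, and the number of arrays limits their precision.

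In the fly, odorant and gustatory receptors are membrane channels made by the sensory neurons of the antenna, palps, labellum and legs, and each neuron usually makes 1 or a few of them. Ionotropic receptors descend from glutamate receptors and work as complexes of a tuned receptor with a co-receptor such as Ir8a, Ir25a or Ir76b. Odorant binding proteins are small secreted carrier proteins of the sensillum lymph, and several are also made outside sensory organs. Mip40, Mip120, Mip130 and Lin-52 belong to the MuvB core of the dREAM complex, which binds E2F and RBF proteins, Myb and L(3)MBT at target genes and keeps many tissue-specific genes silent. E2F2 is the repressor and E2F1 the activator among the fly E2F proteins.

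Of the 9 targeted transcripts with a measured probe set, 8 fell in their own knockdown, by up to -2.37 on the log2 scale for E2f2. The smallest of these changes was that of l(3)mbt, at -0.36, beside a median of -0.28 over foreign control probe sets in the same knockdown. With arrays centred on weak probe sets (defined below) it was -0.18 and no longer passed (adjusted p = 0.0566, limma with Benjamini-Hochberg adjustment). The exception was Rbf, which lay at a signal of 4.92 in control and differed by -0.05 in the RBFs knockdown (adjusted p = 0.841, limma with Benjamini-Hochberg adjustment). Myb itself was not analysed here. Of 12 measured hemocyte markers, 9 were above the foreign range (defined below) in control, with Hml at 11.27 and SPARC at 12.51, whereas NimC1, eater and crq lay within it. Of 11 neuron markers, 3 were above that range in control (brp and futsch in all 10 groups), and of 4 glia markers 1 was, moody. The mean signal of the 12 hemocyte markers per array ranged over the knockdowns from 7.41 to 7.49 in Mip40 up to 8.62 to 8.70 in E2F2, and was between 8.17 and 8.43 in control. The part of these markers' changes in the results below was not tested. The mean signal of the 11 neuron markers per array was between 5.46 and 5.55 in the L(3)MBT knockdown, between 5.61 and 5.78 in the other 8 knockdowns and between 5.63 and 5.70 in control.

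A smaller share of the chemosensory genes than of all genes stood above the signal of probes with no target in the fly, and how many did depended on where that limit was set. The yardstick was 23 AFFX probe sets for foreign sequences, whose mean log2 signals over the 30 arrays ran from 3.15 to 6.22 with a median of 4.32, against a median of 6.55 over the 13966 fly probe sets. Among them are the poly-A controls Dap, Lys, Phe, Thr and Trpn, which can be spiked in. The highest means were those of a Thr (6.22) and a Phe probe set (6.02). The mouse and yeast probe sets had means of at most 5.45. A gene was counted as above this foreign range in a group when its signal exceeded the highest foreign probe set of the same array on all 3 arrays. By this measure 37 of the 157 genes (23.6%) were above the range in at least 1 group, against 66.5% of all 10844 genes. With the 75th percentile of the foreign probe sets as the limit, 96 genes (61.1%) were above it, against 84.6% of all genes. In control there were 35 (22.3%), against 59.1% of all genes, and in the knockdowns between 32 and 36. The count was 28 genes in all 10 groups. Signal also depends on the probes themselves, so a level above the range describes a probe set and does not alone show that the transcript was made. In such bulk RNA, fewer cells that make a transcript and less of it per cell cannot be told apart.

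**Figure D1:**
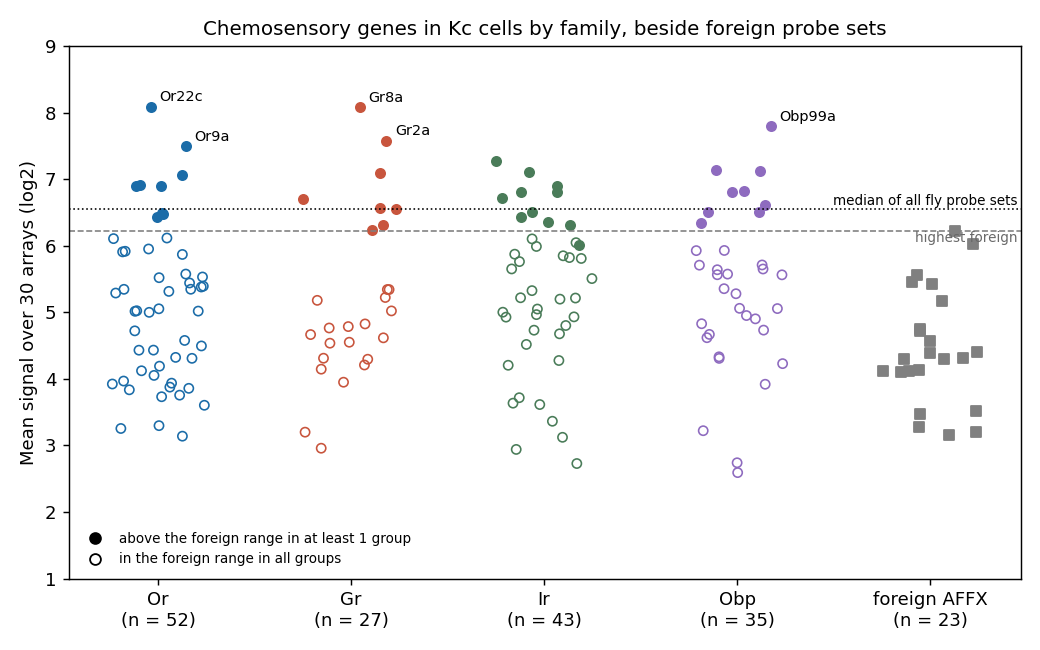
Mean log2 signal over 30 arrays of each gene (circles, by family) and of the 23 foreign AFFX probe sets (squares). Filled circles are the 37 genes above the foreign range in at least 1 group, the dashed line is the highest foreign mean (6.22) and the dotted line is the median of the fly probe sets (6.55). In all 4 families most genes lie below the highest foreign mean.

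By family, 9 of 52 Or, 8 of 27 Gr, 11 of 43 Ir and 9 of 35 Obp genes were above the range in at least 1 group, or between 17.3 and 29.6%. Of the odorant receptors, these were Or22c, Or9a, Or46a, Or22b, Or7a, Or59b, Or59a, Or2a and Or47b. Or22c, a receptor of larval olfactory neurons, read between 7.59 and 8.24 over the 30 arrays, and its control arrays read 8.14, 8.04 and 7.96. Or47b, a pheromone-sensing receptor of antennal neurons, was above the range in 9 groups and below it only in the L(3)MBT knockdown.

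Among the gustatory receptors the genes above the range were Gr8a, Gr2a, Gr21a, Gr43a, Gr5a, Gr61a, Gr98d and Gr57a. Gr8a, a bitter receptor, read between 7.35 and 8.29, and Gr21a, a subunit of the carbon dioxide receptor, read between 6.78 and 7.38. Gr43a, a fructose receptor, and the sugar receptors Gr5a and Gr61a stayed above the range in all 10 groups. These were 3 of the 4 measured sugar receptors of a list of 9, with Gr64f the other. Of 7 measured bitter receptors, Gr8a alone was above the range.

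The ionotropic receptors above the range were Ir56b, Ir75b, Ir60d, Ir68b, Ir7g, Ir40a, Ir60e, Ir56c, Ir76a, Ir20a and Ir68a. Of these, Ir68a was above it in the L(3)MBT knockdown alone. The highest foreign probe set was lower on those arrays, at 5.76 to 5.94, against 6.15 to 6.32 in control. Ir68a differed there from control by 0.17 as deposited, which did not pass. With arrays centred on weak probe sets the difference was 0.35 (adjusted p = 0.00137, limma). Ir40a and Ir68a are humidity receptors of the antenna and Ir75b is a receptor for small acids. None of the 4 co-receptors was above the range in any group. Their control means were between 5.27 and 6.17, and Ir8a, Ir25a and Ir76b read at most 6.34 on any array. Orco, the obligate partner of most odorant receptors and no member by its symbol, was at 5.90 in control and above the range in 0 of 10 groups.

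The odorant binding proteins above the range were Obp99a, Obp44a, Obp99c, Obp47b, Obp19b, Obp73a, Obp18a, Obp28a and Obp99b. Obp99a read between 7.46 and 8.01 over all arrays and Obp99c between 6.87 and 7.29. The gene lush, whose product carries a pheromone, was at 3.85 in control.

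Outside the L(3)MBT knockdown a smaller share of the chemosensory genes than of all fly probe sets changed. Of 157 genes, 40 passed the test in at least 1 of the other 8 knockdowns, against 53.2% of all fly probe sets and 36.1% of the 5816 weak ones, those whose mean was no higher than that of the highest foreign probe set. The test was limma on the log2 values, with Benjamini-Hochberg adjustment over all 13966 fly probe sets within each comparison and a threshold of 0.05. Over 9 comparisons, 183 of 1413 pairs of a gene and a knockdown passed, 93 genes passed in the L(3)MBT knockdown alone and 24 in none. The share of all fly probe sets called in a comparison ran from 3.19% for Myb to 68.3% for L(3)MBT. These pooled counts are not given for all fly probe sets, so they do not set the chemosensory genes apart from other genes. When the L(3)MBT knockdown was left aside, the range of the 9 remaining group means of a gene had a median of 0.24 log2 units and was under 0.5 for 151 of the 157 genes.

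In 8 of the 9 knockdowns, all but L(3)MBT, the share of chemosensory genes called was below that of all fly probe sets. In the Mip40 knockdown 1 gene rose and 1 fell, whereas 9.59% of all fly probe sets and 4.37% of weak ones were called (4.53% of all rose and 5.07% fell). In the Mip120 knockdown 3 genes rose and 1 fell, against 11.7% of all and 5.12% of weak probe sets called (5.48% of all rose and 6.24% fell). In the Mip130 knockdown 4 rose and 0 fell, against 6.76% of all and 3.16% of weak ones (3.42% rose and 3.34% fell). In the Lin-52 knockdown 3 rose and 1 fell, against 11.7% of all and 5.3% of weak ones (5.8% rose and 5.89% fell). In the Myb knockdown 1 rose and 0 fell, against 3.19% of all and 1.07% of weak ones (1.32% rose and 1.88% fell). In the RBFs knockdown 0 rose and 2 fell, against 13.5% of all and 4.73% of weak ones (6.9% rose and 6.62% fell). The members' shares were 1.27% for Mip40 and RBFs, 2.55% for Mip120, Mip130 and Lin-52, and 0.637% for Myb. At an unadjusted p under 0.05, between 6 and 16 genes differed in these 6 comparisons. The 95% confidence interval of the change lay within 0.5 log2 units either way for between 153 and 156 genes in each. Leaving out control array 3 gave 4 calls for Mip40 and 7 for Lin-52, and leaving out control array 1, control array 2 or Mip120 array 2 gave 2 calls for Mip120.

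**Figure D2:**
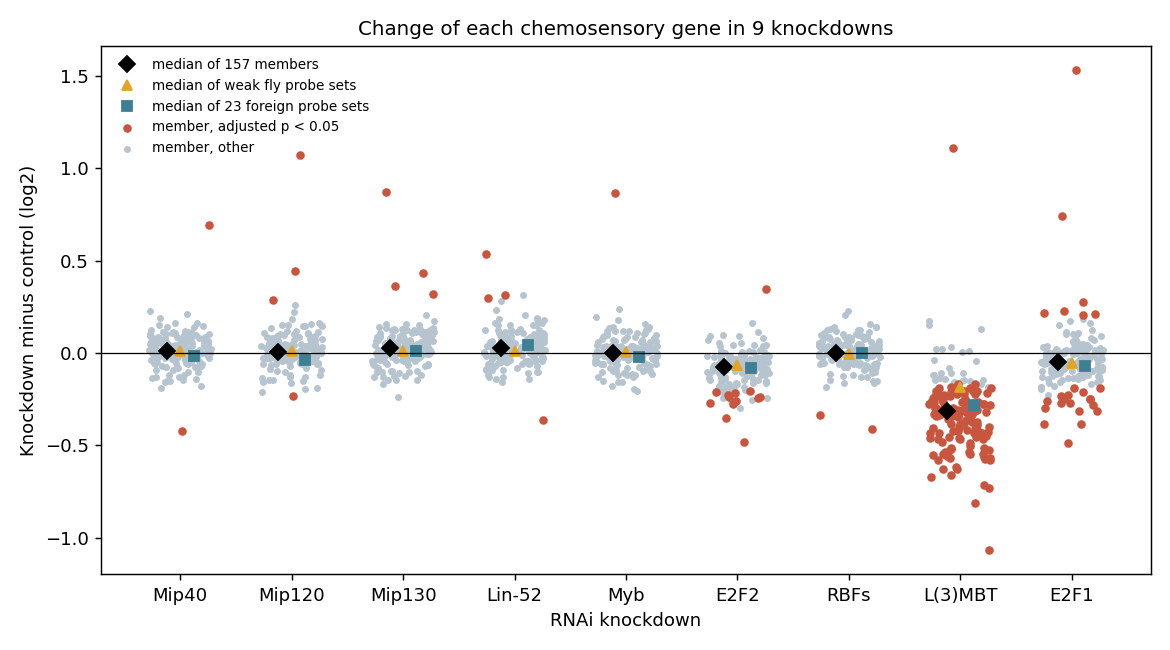
Knockdown minus control (log2) for each of the 157 genes in 9 knockdowns. Red points passed the adjusted threshold, and diamonds, triangles and squares give the medians of the genes, of the weak fly probe sets and of the foreign probe sets. Few genes leave the cloud in 8 knockdowns, whereas in the L(3)MBT knockdown the cloud and the foreign median (-0.28) lie below 0.

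Ir76a, an antennal ionotropic receptor for phenylethylamine, differed from control in all 9 knockdowns and in both directions. It read 6.60, 6.61 and 6.80 in the Mip40 knockdown, 6.98, 7.02 and 7.17 in Mip120, and 6.85, 6.77 and 6.92 in Mip130. It read 6.47, 6.52 and 6.56 in the Lin-52 knockdown, 6.86, 6.95 and 6.73 in Myb, and 6.87, 6.97 and 7.42 in L(3)MBT. It read 5.40, 5.47 and 5.62 in the E2F2 knockdown, 5.44, 5.58 and 5.68 in RBFs, and 5.47, 5.51 and 5.48 in E2F1, against 5.96, 6.04 and 5.93 in control. All arrays of the first 6 knockdowns thus lay above the control arrays, and all arrays of the E2F2, RBFs and E2F1 knockdowns lay below them. The control arrays and those of the 3 lower knockdowns were within the foreign range, and the other 6 groups were above it.

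The rises of Ir76a were 0.69 for Mip40, 1.07 for Mip120, 0.87 for Mip130, 0.54 for Lin-52, 0.86 for Myb and 1.11 for L(3)MBT, and the falls were -0.48 for E2F2, -0.41 for RBFs and -0.49 for E2F1 (log2, SE 0.0933 each). The adjusted p-values from limma ran from 7.79e-12 for L(3)MBT and 9.09e-11 for Mip120 to 0.00197 for RBFs. Because the control signal was within the foreign range, each rise is given as a fold only against the highest foreign probe set of the control arrays. On that basis Ir76a was at least 1.37-fold higher for Mip40, 1.78-fold for Mip120, 1.54-fold for Mip130 and Myb, 1.23-fold for Lin-52 and 1.82-fold for L(3)MBT. With arrays centred on weak probe sets, the L(3)MBT rise was 1.29. No fold is given for the 3 falls, since both sides were within the range.

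The knockdowns were also compared with each other for Ir76a in the same fit. The Mip120 knockdown exceeded the E2F2 knockdown by 1.56 (adjusted p = 6.31e-15, limma) and the Myb knockdown exceeded the E2F1 knockdown by 1.35 (adjusted p = 3.94e-14). The RBFs knockdown was below the Mip40 knockdown by -1.10 (adjusted p = 8.67e-11). Within the higher set, Lin-52 was lower than Myb by -0.33 (adjusted p = 0.0183), whereas Mip120 minus Mip130 was 0.20 (adjusted p = 0.39) and L(3)MBT minus Mip120 was 0.03 (adjusted p = 0.751). Within the lower set, E2F2 minus E2F1 was 0.01 (adjusted p = 0.967) and RBFs minus E2F2 was 0.07 (adjusted p = 0.632). These differences have an SE of 0.0933. In the RefSeq table Ir76a overlaps CG14102, and the labels do not say how far probes separate such genes. The probe set of CG14102 read 4.90 in control and changed by between -0.19 and 0.20 over the 9 knockdowns.

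**Figure D3:**
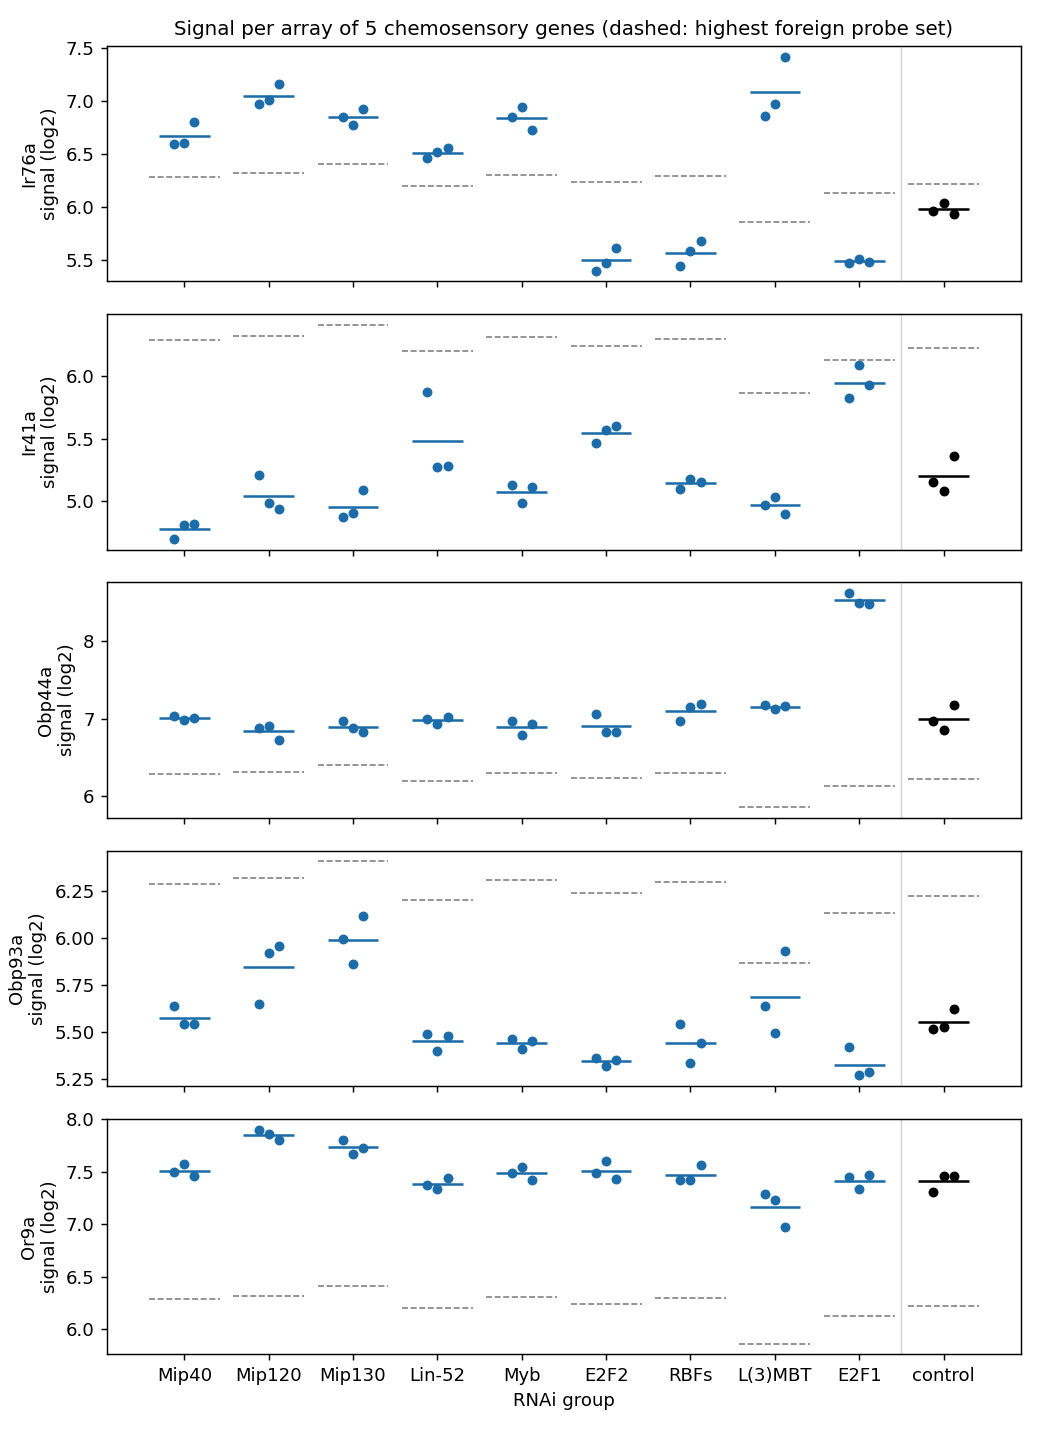
Log2 signal on each array (points) with group means (bars) for 5 genes in 9 knockdowns (blue) and control (black, right). The dashed lines give the mean over the 3 arrays of the highest foreign probe set in each group. Ir76a is above its control arrays in 6 knockdowns and below them in 3, and Obp44a stands apart in the E2F1 knockdown.

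Ir41a, an antennal receptor for amines that works with Ir76b, stayed within the foreign range in all groups. It read 4.70, 4.81 and 4.82 in the Mip40 knockdown, 5.47, 5.57 and 5.60 in E2F2, and 5.82, 6.08 and 5.92 in E2F1, against 5.15, 5.08 and 5.36 in control. The E2F1 and E2F2 arrays all lay above the control arrays and the Mip40 arrays all lay below them. The differences were 0.74 for E2F1 (SE 0.105, adjusted p = 4.18e-07), 0.35 for E2F2 (adjusted p = 0.0192) and -0.42 for Mip40 (adjusted p = 0.00659). The Lin-52 arrays read 5.87, 5.28 and 5.28, so that 1 array set that group apart, and the difference of 0.28 from control did not pass (adjusted p = 0.0837). E2F2 was lower than E2F1 by -0.40 (adjusted p = 0.00262). The E2F2 call was lost without control array 1 (adjusted p = 0.0604) or 2 (0.0886) and without E2F2 array 2 (0.0583) or 3 (0.0816).

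Obp44a had the largest change of any chemosensory gene in any of the 9 comparisons. It read 8.62, 8.50 and 8.48 in the E2F1 knockdown, against 6.97, 6.85 and 7.18 in control. Every array of the E2F1 knockdown was above every control array, and all groups were above the foreign range. The rise was 1.53 log2 units (SE 0.0760), or 2.89-fold, with an adjusted p of 8.91e-18 (limma). In the other 8 knockdowns its changes as deposited ran from -0.16 to 0.15 and none passed. With arrays centred on weak probe sets, Obp44a rose by 0.33 in the L(3)MBT knockdown (adjusted p = 0.000199, limma). The E2F1 knockdown was higher than E2F2 (E2F2 minus E2F1 -1.63, adjusted p = 1.75e-18), RBFs (-1.43, adjusted p = 7.43e-17) and Myb (-1.64, adjusted p = 1.13e-18). In the RefSeq table Obp44a overlaps Pabp2, a poly(A) binding protein gene, whose probe set changed by 0.04 in the E2F1 knockdown (adjusted p = 0.818), and by 1.67 in the L(3)MBT knockdown, in which Obp44a differed by 0.15 (adjusted p = 0.0718). Its right neighbour Lpin rose by 0.40 in the E2F1 knockdown.

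Or9a, an antennal odorant receptor, was above the foreign range in all groups. It read 7.90, 7.85 and 7.80 in the Mip120 knockdown and 7.80, 7.67 and 7.72 in Mip130, against 7.31, 7.46 and 7.45 in control. All arrays of both knockdowns lay above the control arrays. The rises were 0.44 for Mip120 (SE 0.0691, 1.36-fold, adjusted p = 1.68e-05) and 0.32 for Mip130 (1.25-fold, adjusted p = 0.00175). Mip40 was lower than Mip130 by -0.22 (adjusted p = 0.0484) and Myb was lower than Mip130 by -0.25 (adjusted p = 0.0203). In the L(3)MBT knockdown Or9a fell by 0.24 (adjusted p = 0.00261, limma), where the median change of the foreign probe sets was -0.28. With arrays centred on weak probe sets this fall no longer passed. No overlapping gene is listed for Or9a.

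Obp93a, of the Plus-C branch of odorant binding proteins, also rose in the Mip120 and Mip130 knockdowns while it stayed within the foreign range. It read 5.99, 5.86 and 6.11 in the Mip130 knockdown and 5.65, 5.92 and 5.96 in Mip120, against 5.51, 5.53 and 5.62 in control. Neither knockdown overlapped control. The rises were 0.43 for Mip130 (SE 0.0858, adjusted p = 0.00064) and 0.29 for Mip120 (adjusted p = 0.0228), and in the E2F1 knockdown it fell by 0.23 (adjusted p = 0.0317). Myb was lower than Mip130 by -0.55 (adjusted p = 1.75e-05). The Mip120 call was lost without control array 1 (adjusted p = 0.0938) or 2 (0.086), without Mip120 array 2 (0.116) or 3 (0.141), and with arrays centred on weak probe sets (0.0517). Its overlapping gene CG5793 read 7.05 in control and changed by between -0.06 and 0.11. These 5 genes were singled out after their values were seen, as those with a called change of at least 0.4 in a knockdown other than L(3)MBT.

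The other calls in the MuvB, Myb and RBFs knockdowns were small. Gr61a, a sugar receptor, read 6.31, 6.33 and 6.48 in the Lin-52 knockdown, against 6.85, 6.70 and 6.66 in control, without overlap. It fell by 0.36 there (adjusted p = 0.000313, limma), by 0.24 in the E2F2 knockdown and by 0.23 in the E2F1 knockdown. The odorant receptors Or33a (0.36 in Mip130) and Or98a (0.30 in Lin-52) and the binding protein Obp56d (0.32 in Lin-52) rose within the foreign range. Gr36c fell by 0.24 in the Mip120 knockdown with an adjusted p of 0.0487, a call lost under 9 of the alternatives. The humidity receptor Ir68a read 5.80, 5.76 and 5.69 in the RBFs knockdown, against 5.95, 6.18 and 6.12 in control, and fell by 0.33 (adjusted p = 0.00521). Both groups were within the foreign range.

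In the E2F2 knockdown 1 gene rose and 12 fell, against 17.2% of all fly probe sets (10.2% higher and 7.02% lower) and 10.7% of weak ones called. The 13 calls are 8.28% of the genes, below both shares. The falls had sizes between 0.21 and 0.48. Gr21a read 6.97, 6.79 and 6.82 in the E2F2 knockdown, against 6.98, 7.17 and 7.20 in control, so the highest knockdown array lay just under the lowest control array. It fell by 0.26 (SE 0.0796, adjusted p = 0.0203), and the call was lost in 5 alternatives, among them control array 3 left out (adjusted p = 0.106). The other falls were of Gr36c, Gr61a, Ir76a, Ir7g, Ir87a, Ir94g, Ir100a, Obp58c, Obp83b, Or13a and Or22b. The median change was -0.07 over the 157 genes, -0.07 over weak fly probe sets and -0.08 over the 23 foreign probe sets, of which 21 were lower in the knockdown. With arrays centred on weak probe sets, 2 genes rose and 3 fell, against 15.7% of all fly probe sets and 9.27% of weak ones called. Leaving out control array 3 gave 5 calls, and leaving out E2F2 array 1, 2 or 3 gave 7, 8 and 4.

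In the E2F1 knockdown 7 genes rose and 18 fell, which is 15.9% of the genes against 39.5% of all fly probe sets (16.3% higher and 23.2% lower) and 25% of weak ones. The odorant binding proteins held 11 of these calls, 2 rises and 9 falls among 35 genes. Their share of 31.4% lay between those of weak and of all fly probe sets. The gustatory receptors held 1 call among 27 genes (3.7%). Obp99b read 6.12, 6.02 and 6.19 in the E2F1 knockdown, against 6.40, 6.44 and 6.42 in control, and fell by 0.31 (adjusted p = 7.1e-05, limma). Obp56h fell by 0.38, Obp59a, which is needed for humidity sensing, by 0.32, and Obp56e by 0.30, all within the foreign range. The co-receptor Ir76b read 5.85, 5.45 and 5.59 in the E2F1 knockdown, against 5.94, 6.01 and 6.09 in control, without overlap. It fell by 0.38 (SE 0.0832, adjusted p = 0.00029). Besides Obp44a and Ir41a, the rises were of Or23a (0.27), Or35a (0.23), Obp18a (0.22), Ir40a (0.21) and Or10a (0.21). Without E2F1 array 1 the adjusted p of Or23a was 0.308. Leaving out control array 3 or E2F1 array 3 gave 16 calls each. The split moved with the scaling, to 10 higher and 15 lower after quantile normalization and 11 and 13 with arrays centred on their median. Centring on weak probe sets gave 11 and 15, against 36.7% of all fly probe sets and 23.7% of weak ones called. After cyclic loess the split was 13 and 12.

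**Figure D4:**
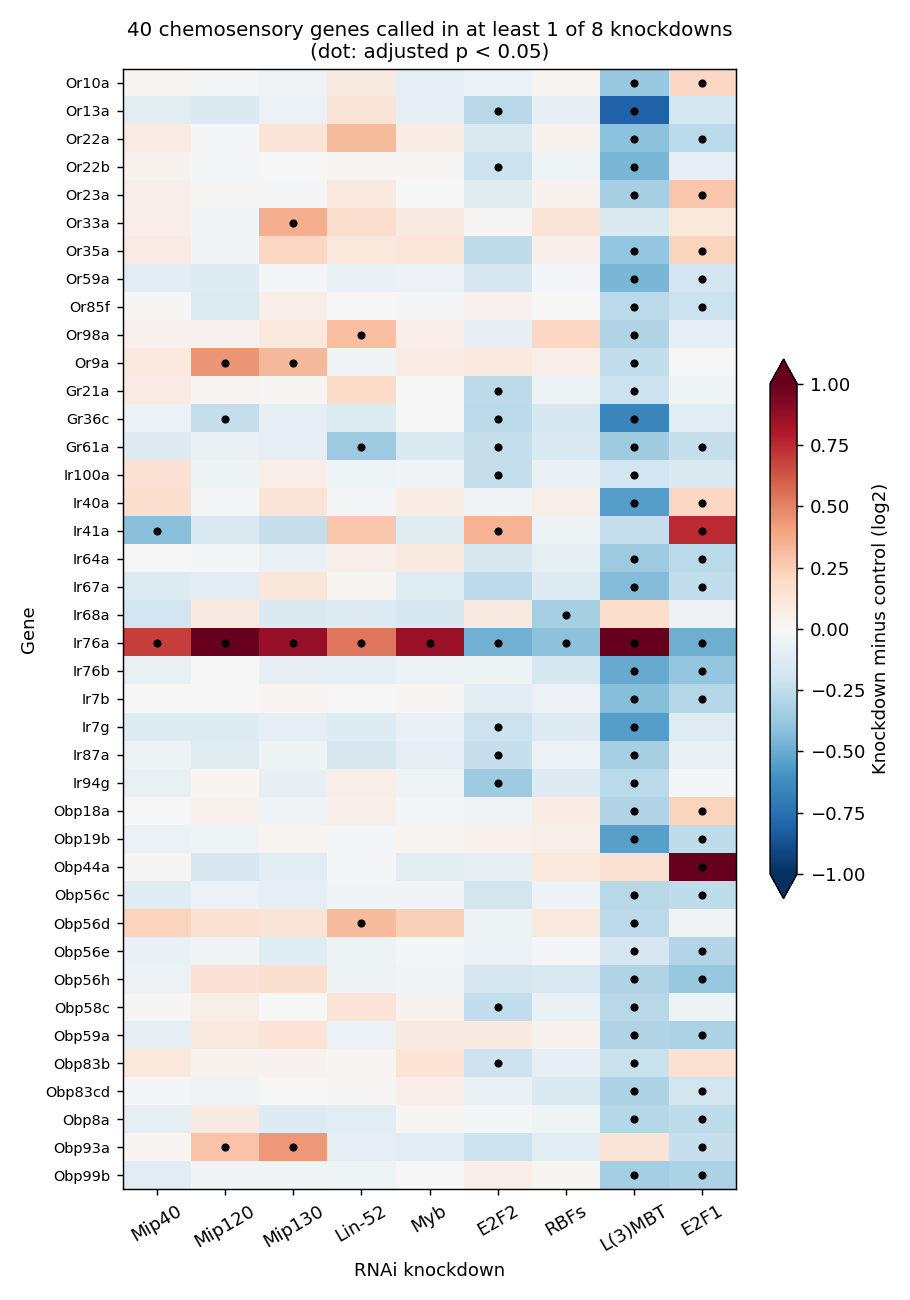
Knockdown minus control (log2, colour) for the 40 genes called in at least 1 of the 8 knockdowns other than L(3)MBT, ordered by family, with a dot where the adjusted p passed. Ir76a is called in all 9 columns, and the L(3)MBT column is blue for most genes.

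The L(3)MBT knockdown gave the widest change, in which 127 of the 157 genes fell and 1, Ir76a, rose. Called genes made up 81.5% of the genes, against 68.3% of all fly probe sets and 62.5% of weak ones. Of all fly probe sets 42.1% fell and 26.3% rose, and of weak ones 50.3% fell. By family, 43 of 52 Or, 26 of 27 Gr, 32 of 43 Ir and 26 of 35 Obp genes fell. When arrays were centred on weak probe sets, 26 Or, 16 Gr, 21 Ir and 6 Obp genes fell, and 4 Ir and 4 Obp genes rose. Of all fly probe sets 20.6% then fell and 39.5% rose. The median change was -0.34 for Or, -0.40 for Gr, -0.33 for Ir and -0.24 for Obp genes as deposited.

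Probes with no fly target moved the same way on these arrays. The median change was -0.32 over the 157 genes, -0.28 over the 23 foreign probe sets, -0.18 over weak fly probe sets and -0.11 over all fly probe sets, and 22 of the 23 foreign probe sets were lower in the knockdown. The highest foreign probe set read 5.89, 5.94 and 5.76 on the 3 L(3)MBT arrays, against 6.20, 6.15 and 6.32 on the control arrays. The part of this shift in the falls was not tested. When arrays were centred on the weak fly probe sets, which raised the median change of all fly probe sets by 0.18, 69 genes fell and 8 rose, against 60.0% of all fly probe sets and 46.2% of weak ones called. The foreign median was then -0.10. Centring on each array's median raised it by 0.10 and left 92 falls and 4 rises.

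Or59b, an odorant receptor for acetate esters, fell most. It read 5.79, 6.14 and 5.92 in the L(3)MBT knockdown, against 7.01, 6.96 and 7.09 in control, without overlap. The fall was -1.07 (SE 0.0750, adjusted p = 1.19e-13, limma), or -0.89 with arrays centred on weak probe sets and the knockdown arrays were not all above the foreign range. In the RefSeq table Or59b overlaps CG43795. The pheromone-sensing receptor Or47b read 5.76, 5.93 and 5.75 in the knockdown, against 6.50, 6.50 and 6.63 in control (-0.73, or -0.55 centred on weak probe sets). The bitter receptor Gr8a read 7.43, 7.54 and 7.35 in the knockdown, against 8.19, 8.04 and 8.24 in control (-0.72, or -0.54 centred on weak probe sets). In all 3 genes every knockdown array lay below every control array.

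Falls also included genes within the foreign range on both sides, such as the octenol receptor Or13a (-0.81) and the sugar co-receptor Gr64f (-0.67). All 4 measured sugar receptors, all 7 bitter receptors and 5 of 5 pheromone receptors fell, with list medians of -0.39, -0.41 and -0.42, where 42.1% of all and 50.3% of weak probe sets fell and the foreign median was -0.28. Gr32a stands in both the bitter and the pheromone list. With arrays centred on weak probe sets, 3 sugar, 4 bitter and 3 pheromone receptors fell. Of the 4 co-receptors, Ir8a (-0.57), Ir25a (-0.55) and Ir76b (-0.51) fell, and Ir93a differed by -0.11 (95% confidence interval -0.28 to 0.06). Of 10 measured antennal ionotropic receptors, 6 fell and 1 rose, and of 8 measured Plus-C odorant binding proteins 5 fell, with list medians of -0.27 and -0.23, neither below the foreign median of -0.28. After centring on weak probe sets, 3 of these ionotropic receptors fell and 2 rose, and of the Plus-C proteins 0 fell and 1, Obp93a, rose. Some genes above the range in all groups fell by less. Obp99a read 7.46, 7.54 and 7.53 in the knockdown, against 7.89, 7.79 and 7.85 in control (-0.33), and Or22c read 7.87, 7.97 and 7.59, against 8.14, 8.04 and 7.96 in control (-0.23), with overlap. With arrays centred on weak probe sets the fall of Or22c no longer passed.

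Over all 9 knockdowns together, the moderated F test called 131 of the 157 genes, against 86.4% of all fly probe sets and 77.6% of weak ones. Without the L(3)MBT arrays it called 53 genes, against 60.3% of all fly probe sets and 44.9% of weak ones.

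Position on the chromosome was compared by RefSeq neighbour relations of Release 6 plus ISO1 MT. Another gene overlaps 49 of the 157 genes, so that their signal is uncertain where probes do not separate the pair. Of these 49 genes, 12 were above the foreign range in at least 1 group and 11 were called in at least 1 of the 8 knockdowns other than L(3)MBT. Of the 108 without an overlap, the counts were 25 and 29. Of all genes 66.5% were above the range, and 53.2% of all fly probe sets and 36.1% of weak ones were called in this way. A difference between genes with and without an overlap was not tested. Among the 12, Gr8a overlaps CG12121, Gr43a overlaps Dhx15 and Gr5a overlaps an antisense RNA. Gr2a overlaps futsch, which was itself above the range in all 10 groups. Or46a overlaps CG12917 and an antisense RNA, Or59b overlaps CG43795, Ir60e overlaps Brca2 and Ir76a overlaps CG14102. Obp44a overlaps Pabp2, Obp47b overlaps CG7741, Obp73a overlaps Cpr73D and Ogdh, and Obp99c overlaps Gycalpha99B. In the table, 64 of the 157 genes sit next to another gene of these families.

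Other genes of chemosensation were read beside the 4 families. Of 38 listed genes for pheromone carriers, sensory membrane proteins, CheA and CheB proteins, pickpocket channels and TRP channels, 26 were measured and 8 were above the foreign range in control. None passed in the Mip40, Mip120, Mip130, Lin-52, Myb or RBFs knockdowns (limma), in the same comparisons that called between 3.19 and 13.5% of all fly probe sets, and at an unadjusted p under 0.05 between 0 and 2 of them differed. In the E2F2 knockdown 0 rose and 4 fell (Orco, lush, CheB38c and nompC), against 17.2% of all fly probe sets called. In E2F1 1 rose (ppk29, by 0.27) and 2 fell, against 39.5%. In L(3)MBT 2 rose and 19 fell, against 68.3%, with a median change of -0.28, beside -0.28 over the foreign probe sets. Centring on weak probe sets gave 2 rises and 9 falls there.

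Of 19 listed transcription factors of chemosensory neurons, 18 were measured, 10 of them above the foreign range in control. Of these, 1 rose and 0 fell in each of the Mip40 and Mip120 knockdowns (9.59% and 11.7% of all fly probe sets called), 2 rose and 0 fell in Lin-52 (11.7%), and none passed in Mip130 (6.76%) or Myb (3.19%), where 3 and 2 had an unadjusted p under 0.05 (limma). In E2F2 1 rose and 2 fell (17.2%), in RBFs 4 rose and 0 fell (13.5%), and in E2F1 3 rose and 2 fell (39.5%). In L(3)MBT 2 rose and 10 fell (68.3%), or 4 and 2 with arrays centred on weak probe sets. The homeodomain gene zfh2, within the foreign range in control at 4.94, rose by 1.02 in Lin-52, 1.12 in E2F2 and 0.69 in RBFs. The POU gene acj6, which acts on odorant receptor genes, rose by 0.26 in Lin-52 and by 0.25 in RBFs within the foreign range. Of 13 measured signal transduction genes, 2 rose and 0 fell in each of Mip40 and Mip120, 1 rose and 0 fell in Mip130, 3 rose and 0 fell in Lin-52, and none passed in Myb, where 1 had an unadjusted p under 0.05. In E2F2 2 rose and 1 fell, in RBFs and in E2F1 3 rose and 1 fell, and in L(3)MBT 4 rose and 4 fell, or 6 and 2 with arrays centred on weak probe sets. The fly-wide shares are those given for the transcription factors. The G protein gene Gbeta76C rose by 1.34 in Mip120 and 1.81 in Mip130, and Galphao rose by 1.54 in E2F1.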

How the data were processed

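Per the labels' protocols, RNA was taken after 4 days of RNAi and 10 micrograms of it went into biotin-labelled cRNA for Affymetrix arrays. GCOS 1.2.0 is listed in the submitters' processing notes. The values deposited by the authors ran from 1.95 to 13.6 and were read here as log2 signals because of that range; the log base, normalization and summarization are not given in the sources used here. Values were used as deposited, with array medians from 6.44 to 6.58. The deposited annotation assigned 12443 of 13966 fly probe sets to 1 gene, 327 to several and 1196 to none. All 157 gene IDs were found in the RefSeq table and kept their symbols.

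The test was a single limma fit of all fly probe sets (limma 3.58.1 in R 4.3.3), with 10 group means over 30 arrays (20 residual degrees of freedom), an intensity trend, no filter on low values and no replicate block. Tests were two-sided. The 44 control probe sets were left out, 23 of them foreign AFFX probe sets and none removed as spiked. A foreign probe set was to be removed only if its mean exceeded the median of the fly probe sets, so a weaker spike would be missed. The fit was tested on simulated data. Genes named were those above the foreign range in any group, up to 5 largest rises and falls called in each comparison, the 3 of highest signal per family, Gr21a, the co-receptors, called genes of the role lists (up to 3 per list and comparison) and the RNAi targets; the gene lists and members were chosen with earlier results of these data known. Residuals of arrays with the same replicate number as the control all correlated above 0.1 for Myb alone (0.13, 0.32 and 0.52), and elsewhere pairs ran from -0.39 to 0.41. Figures were drawn with Python 3.11.15 and matplotlib 3.10.9. No gene or probe sequence is printed.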

Additional observations from a re-analysis of the deposited data

How the results depend on the processing

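Called genes per comparison were recomputed under other settings, given in the order Mip40, Mip120, Mip130, Lin-52, Myb, E2F2, RBFs, L(3)MBT and E2F1, against 2, 4, 4, 4, 1, 13, 2, 128 and 25 as reported. Array weights gave 6, 11, 6, 10, 1, 20, 5, 113 and 37. Requiring a change of at least 0.5 gave 1, 1, 1, 1, 1, 0, 0, 29 and 2. Keeping only probe sets above their array's median on 3 or more arrays gave 1, 2, 2, 2, 1, 6, 1, 29 and 7, because 32 of the 157 genes pass it, and the F test then called 30. For L(3)MBT, quantile normalization gave 81, centring on weak probe sets 77 and cyclic loess, added after the data were seen, 76. For E2F2, centring on weak probe sets gave 5 and cyclic loess 8. Of all fly probe sets, centring on weak probe sets called 60.0% for L(3)MBT and 15.7% for E2F2. Such shares are not given here for array weights, the change limit, the filter, the other scalings or the left-out arrays. Without the L(3)MBT arrays, also added later, the F test called 53 and E2F2 18. Leaving out each array in turn gave 2 to 4 for Mip40, 2 to 5 for Mip120, 3 to 5 for Mip130, 3 to 7 for Lin-52, 1 for Myb, 4 to 14 for E2F2, 2 to 3 for RBFs, 104 to 134 for L(3)MBT, 16 to 23 for E2F1 and 123 to 135 for the F test.

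With the replicate number as a block (replicate block), the counts were 2, 3, 4, 5, 1, 13, 2, 127 and 24, and 128 for the F test; the call of Gr36c in the Mip120 knockdown was lost (adjusted p = 0.0603). Using the 75th percentile of the foreign probe sets put 96 genes (61.1%, against 84.6% of all genes) above the range instead of 37, the second highest 44 (28.0%, against 69.3%), and leaving out a replicate number 37 to 39. Of 636 recomputed values of 39 named changes, 587 kept direction and call, 49 kept direction without the call and 0 reversed. Weak signals limit these genes, since most lie within the foreign range.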

Other observations

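A further 5 probe sets were shared by several genes, at least 1 of them of these families, and entered no count above. Their means over the 30 arrays were 3.81 for Obp50b with Obp50c, 3.90 for Gr64b with Gr64c, 4.09 for Gr64d with Gr64e, 3.94 for Ir75d with COX6AL2 and 7.16 for Obp57d with Cpr57A.

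For 5 genes a second probe set gave a lower signal and was not used. Both probe sets of Ir8a (means 6.10 and 6.05) and of Ir10a were called in the L(3)MBT knockdown alone, as falls. The probe sets of Ir40a disagreed. The one used (mean 6.72) was called as a rise in E2F1 and as a fall in L(3)MBT, whereas the second (mean 4.83) was called as a fall in Mip120, E2F2 and L(3)MBT and not in E2F1. For Or46a the one used (7.07) was called in L(3)MBT and the second (5.06) in 0 comparisons, and for Ir93a the second (2.86) was called in L(3)MBT and the one used (5.20) in 0.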
